A study of Mus musculus with 2 samples.

Results

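The Zfp-named zinc finger genes are the mouse genes whose official symbol begins with Zfp followed by a digit. They were found through the NCBI Gene numbers carried in the array's target identifiers and the symbols of a RefSeq gene table, with Zfp42 left out and 1 probe kept per gene, the brightest by mean log2 signal over both arrays. This gave 169 genes, read by 221 probes, of 8102 named genes on the array. RefSeq lists 415 such symbols, so the array results cover part of the family. Of the 169, 166 were protein-coding and 3 had another biotype. Transcript signals were compared between the EB sample, labelled day 4, and the ES sample, labelled day 0, both of mouse cells. The labels spell out neither abbreviation (usually embryoid bodies and embryonic stem cells) and give no strain, line, culture condition or treatment. Each sample was 1 array of the same bead chip type, so nothing below has a replicate: there is no test across samples, and culture, array and day cannot be told apart.

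Most proteins of this family carry rows of C2H2 zinc fingers, small folds in which paired cysteines and histidines hold a zinc ion and which together read a DNA sequence. Many also carry a KRAB domain, which recruits the corepressor TRIM28 and, with it, the histone methyltransferase SETDB1 and heterochromatin proteins. In mouse ES cells such proteins silence endogenous retroviruses and protect imprinted loci. Others of the name lack KRAB and act as activators, as chromatin cofactors or on RNA. The genes often lie in clusters that arose by duplication.

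Signals are bead-averaged intensities, quantile normalized over both arrays, with no background subtraction. A signal floor of 230.0 marks the lowest normalized signal past a detection score of 0.99 in EB. A ratio with the dimmer signal under this floor was taken against the floor and is written "at least"; no ratio is given if neither signal reached it. The error beside a log2 difference (EB minus ES) is a bead-level standard error, which reflects the scatter of beads on an array but not the variation between cultures. Members above the floor had medians of 36.5 beads per probe in EB and 36.5 in ES, with ranges of 16 to 60 and 22 to 56. The number of beads bears on the precision within an array only, and with 1 array per sample the variation between arrays is not measured.

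The labelled cell states were set beside lists of markers. These lists were chosen with earlier results of these data known, so they give no independent check. All 9 named markers of undifferentiated ES cells were above the floor in ES, all had negative differences and 7 were lower in EB by at least 2-fold, with summed signals of 4850 in EB and 38199 in ES. All 8 named markers of early lineages had positive differences, Gata4 by at least 1.97-fold and the other 7 by at least 2-fold, with summed signals of 10442 in EB and 1963 in ES. Of 7 fibroblast markers 5, among them Col1a2, Col3a1 and Postn, were under the floor in both arrays. The summed fibroblast signal was 3961 in EB and 3791 in ES, with Col1a1 at 1007 in EB and 2602 in ES (log2 difference of -1.37) and Fbln2 at 2205 in EB and 365 in ES (2.59), in opposite directions. The part of these cell type differences in the results below was not tested, and in bulk RNA fewer cells of a type and less RNA per cell cannot be told apart.

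In EB 3 members were higher and 1 was lower past a 2-fold rule (an absolute log2 difference of at least 1 with a signal above the floor in at least 1 array). Of the 169 members 82 (48.5%) were above the floor in at least 1 array, 69 of them in both, 9 in EB alone and 4 in ES alone. Over all named genes 3867 (47.7%) were above it. The 4 members past the rule are 4.88% of those 82, against 9.08% of all named genes above the floor (3.72% higher and 5.35% lower). By a 1.5-fold rule 11 members were higher and 6 lower, together 20.7%, against 24.4% of all named genes, and 65 passed in neither direction. Of the 11, Zfp397 passed by its measured difference but not by its bound against the floor. With signals set to the floor 10 were higher and 6 lower, together 19.5%, against 21.9% of all named genes. The order of these shares depends on the values used: with the series value table, 26 of the 82 members (31.7%) passed the 2-fold rule, against 25.7% of all named genes. The highest was Zfp521 with a log2 difference of 1.55 and the lowest Zfp97 with -1.16. Over all named genes the differences ran from -5.18 to 4.00.

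**Figure D1:**
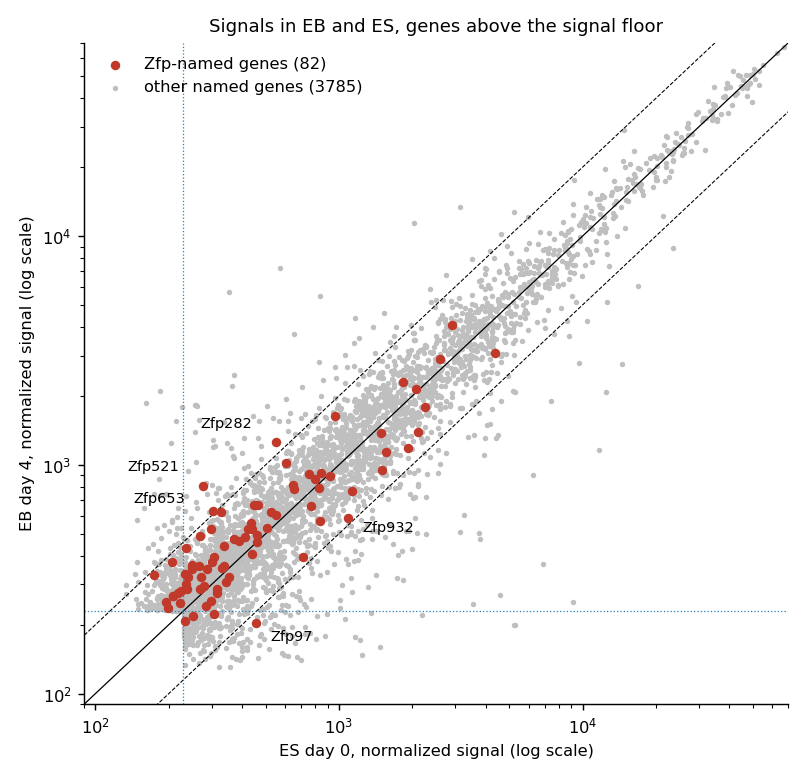
Normalized signal in EB (vertical axis) against ES (horizontal axis), both on log scales, for 82 Zfp-named genes (red) and the other named genes above the floor (grey). The solid line marks equal signals, the dashed lines 2-fold differences and the dotted lines the signal floor of 230.0. Of the red points 3 lie above the upper dashed line and 1 below the lower one.

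Zfp521 encodes a multi-finger cofactor that binds NuRD and antagonises Ebf1, and that is known in mouse ES cells for promoting neural differentiation. Its probe (identifier scl00225207.2_53-S) had a signal of 811 in EB and 277 in ES. This was 2.92-fold higher in EB (log2 difference 1.55, bead-level standard error 0.09). The ES signal lay just over the floor. Zfp282, the mouse counterpart of a human repressor first found by its binding to a retroviral long terminal repeat, had signals of 1256 in EB and 551 in ES (scl0101095.9_35-S). It was 2.28-fold higher in EB, with a log2 difference of 1.19 and a standard error of 0.08. Zfp653 had signals of 631 in EB and 303 in ES (scl0319601.1_34-S), 2.08-fold higher, with a log2 difference of 1.06 and a standard error of 0.11, so that the 2-fold limit lies within its bead-level error. Just under the limit was Zfp516 with a log2 difference of 0.93. Each of these genes was read by 1 probe.

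Zfp97 was the member lower in EB past the rule, a call that was lost with signals set to the floor, with both signals required above it and with a brighter signal of at least 2 times the floor. Its probe (scl0022759.1_263-S) had a signal of 204 in EB, under the floor, and 456 in ES. It was at least 1.98-fold lower in EB, and its measured log2 difference was -1.16 with a standard error of 0.15. The next on this side was Zfp932, a KRAB protein that represses endogenous retroviruses in mouse ES cells, with signals of 587 in EB and 1092 in ES. That is a 1.86-fold lower signal (log2 difference of -0.89, standard error 0.08). Its second probe had signals near the floor, 253 in EB and 268 in ES, and differed by -0.08. The size of the Zfp932 difference thus rests on its brighter probe.

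To show what lies before the start sites of these genes, the 250 bases upstream of the start are given for the members past the 2-fold rule and for the neighbours on chromosome 6 described further on that passed the 1.5-fold rule, as far as the RefSeq table of build GRCm38.p6 holds them. Zfp521 and Zfp862-ps are named only. Capitals mark 6 searched motifs on either strand: the GC box GGGCGG, the CCAAT box CCAAT, the ETS motif CCGGAAG, the NRF1 core GCATGCGC, the octamer ATTTGCAT and the TATA box TATAAA. No motif contains another of these, and an NRF1 core can overlap its own reverse complement. Sequences run 5′ to 3′ on the gene's strand.
Zfp282 (chr6:47877305-47877554, plus strand): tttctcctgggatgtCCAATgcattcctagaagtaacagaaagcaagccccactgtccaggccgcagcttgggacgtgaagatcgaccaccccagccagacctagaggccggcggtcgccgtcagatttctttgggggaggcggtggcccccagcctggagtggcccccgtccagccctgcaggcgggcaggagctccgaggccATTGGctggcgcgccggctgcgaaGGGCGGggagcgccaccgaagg
Zfp777 (chr6:48047795-48048044, minus strand): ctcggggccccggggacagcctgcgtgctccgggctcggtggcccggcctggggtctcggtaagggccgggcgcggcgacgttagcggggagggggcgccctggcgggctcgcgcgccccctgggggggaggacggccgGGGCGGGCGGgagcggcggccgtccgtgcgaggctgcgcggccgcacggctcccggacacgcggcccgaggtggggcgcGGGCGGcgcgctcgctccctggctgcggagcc
Zfp467 (chr6:48445091-48445340, minus strand): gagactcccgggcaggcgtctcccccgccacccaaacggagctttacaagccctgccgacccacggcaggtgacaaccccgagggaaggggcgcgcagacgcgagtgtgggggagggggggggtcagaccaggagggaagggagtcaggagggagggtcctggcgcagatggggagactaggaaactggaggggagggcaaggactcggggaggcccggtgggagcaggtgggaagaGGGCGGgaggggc
Zfp653 (chr9:22071377-22071626, minus strand): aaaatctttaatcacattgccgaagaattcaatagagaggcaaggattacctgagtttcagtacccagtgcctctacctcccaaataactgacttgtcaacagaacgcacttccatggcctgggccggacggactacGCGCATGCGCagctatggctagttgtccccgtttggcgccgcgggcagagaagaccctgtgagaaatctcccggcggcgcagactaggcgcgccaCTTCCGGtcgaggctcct
Zfp97 (chr17:17121133-17121382, plus strand): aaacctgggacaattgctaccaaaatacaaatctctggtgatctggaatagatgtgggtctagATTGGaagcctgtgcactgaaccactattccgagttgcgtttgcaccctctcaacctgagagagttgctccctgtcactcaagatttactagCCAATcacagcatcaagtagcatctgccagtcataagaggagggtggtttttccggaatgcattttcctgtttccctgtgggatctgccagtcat

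The sequence upstream of Zfp282 held 1 GC box and 2 CCAAT boxes, that of Zfp777 held 3 GC boxes, 2 of them overlapping, and that of Zfp467 held 1. Zfp653 had a pair of overlapping NRF1 cores, 1 on each strand, and 1 ETS match, and Zfp97 had 2 CCAAT boxes. Their CG pairs numbered 18 for Zfp282, 42 for Zfp777, 15 for Zfp467, 18 for Zfp653 and 3 for Zfp97. Of the 5 sequences, that of Zfp97, the member lower in EB, held the fewest CG pairs. That is 1 gene, and a link between CG pairs and direction was not tested. A match is a description of letters and not a binding site.

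The same search was run over the family, with upstream sequences for 135 of the 169 members and 27025 genes in all. The CCAAT box was in 46.7% of the members' sequences and 34.5% of all. The ETS motif was in 17.8% and 7.05%, the GC box in 37.8% and 32.9%, and the NRF1 core in 3.70% and 2.32%. The TATA box was in 7.41% of the members' sequences and 13.0% of all, and the octamer in 1.48% and 1.61%. The median number of CG pairs was 10 for members and 6 for all genes. Among members it was 13 for the 60 above the floor and 9 for the 75 under it. The GC box was in 27 of the 60 members above the floor and in 24 of the 75 under it, the CCAAT box in 33 and 30, and the ETS motif in 11 and 13. Copies that arose by duplication share sequence, so these shares do not rest on independent members.

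The following members had smaller positive differences, except where stated. Zfp516, which in mouse activates brown fat genes, had signals of 625 in EB and 328 in ES, 1.91-fold higher. Zfp592, whose human counterpart is part of a chromatin complex with the counterparts of Zfp532 and Zfp687, had signals of 432 in EB and 235 in ES, 1.84-fold higher. Zfp532 itself was 1.48-fold lower, with signals of 765 in EB and 1131 in ES, and Zfp687 was under the floor in both arrays. The 2 measured partners of this complex thus had opposite differences, 0.88 for Zfp592 and -0.56 for Zfp532, with standard errors of 0.09 and 0.07. Zfp672 had signals of 524 in EB and 299 in ES and was 1.75-fold higher. Zfp664 was 1.70-fold higher, with 1634 in EB and 960.5 in ES. Zfp704 was 1.48-fold higher, with 665 in EB and 449 in ES by its brighter probe, with a log2 difference of 0.57. Its second probe had 238 in EB and 204 in ES, with the ES signal under the floor, and was at least 1.04-fold higher. Zfp397 had signals of 330.3 in EB and 174 in ES and was at least 1.44-fold higher. It was named after its values were seen, since a bound orders it below the 12 members of the plot of largest differences. Zfp410, known as a direct and unusually specific activator of Chd4, had signals of 364 in EB and 248 in ES, 1.47-fold higher. Chd4 itself, the NuRD remodeller, gave 4804 in EB and 4366 in ES, a log2 difference of 0.14.

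The following members were lower in EB. Zfp281, a GC-box binding factor that interacts with Nanog and Oct4 in ES cells, had signals of 1136 in EB and 1558 in ES, 1.37-fold lower (log2 difference of -0.46, standard error 0.06). Zfp219, a cofactor of Sox9 in cartilage, had signals of 1190.0 in EB and 1923 in ES, 1.62-fold lower. Zfp654 had 395 in EB and 709.8 in ES, 1.80-fold lower, with a log2 difference of -0.85 by its brighter probe. Its second probe had 213 in EB, under the floor, and 278 in ES, at least 1.21-fold lower. Zfp292 had signals of 1394 in EB and 2113 in ES, 1.52-fold lower, and its second probe gave -0.46 against -0.60, the same direction with both probes well over the floor. Zfp148, a factor that binds GC-rich promoter elements, had 570.2 in EB and 836 in ES, 1.47-fold lower. Zfp710 had 951 in EB and 1505 in ES, 1.58-fold lower. Zfp638, a nuclear matrix protein that binds cytidine-rich DNA, had 3095 in EB and 4352 in ES, 1.41-fold lower. Zfp330 was 1.25-fold lower and Zfp870 at least 1.34-fold lower.

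**Figure D2:**
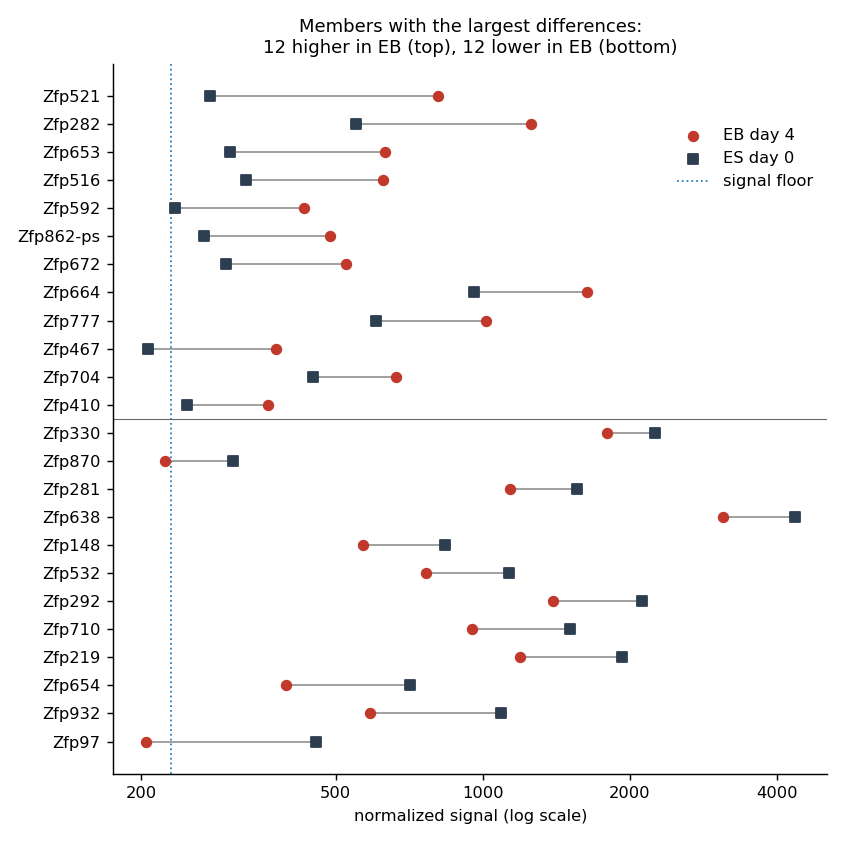
Normalized signal (horizontal axis, log scale) in EB (red circles) and ES (dark squares) for the 12 members with the largest differences in each direction, ordered with signals set to the floor (dotted line, 230.0). In the upper 12 rows every EB signal lies right of the ES signal, and Zfp467 has its ES signal under the floor. In the lower 12 rows every ES signal lies to the right, and Zfp97 and Zfp870 have their EB signals under the floor.

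By role, most lists of members held no gene past the 2-fold rule, which 9.08% of all named genes above the floor passed. Each list held few genes above the floor, so a count of none is no result about a role. Of 4 named genes of retroelement and imprint silencing 2 were above the floor. They were Zfp932 (-0.89 by its brighter probe) and Zfp445, a guardian of imprinted loci, with 362.5 in EB and 338 in ES (log2 difference of 0.10). The list median of -0.40 is the midpoint of these 2 unlike values and describes no group. Of 6 genes linked to self-renewal 4 were above the floor, Zfp281, Zfp322a (0.31), Zfp207 (0.05) and Zfp553 (0.23), with a median of 0.14. None of the 4 passed the 1.5-fold rule, which 24.4% of all named genes above the floor passed. Zfp462 and Zfp352 were under the floor in both arrays. Of 10 lineage and signalling cofactors 5 were above the floor, with a median of 0.52. Among these Zfp521 passed the 2-fold rule, Zfp467, which favours fat over bone cell fate in mouse, was at least 1.64-fold higher, and Zfp703, a transcriptional cofactor of the NET family, gave 0.52. Zfp219 was the one of them with a negative difference. Zfp64, linked to Notch targets, gave 0.12 by its first probe, and its second had the opposite sign.

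Of 12 broadly acting chromatin and transcription factors 9 were above the floor, 4 with a positive and 5 with a negative difference, and a median of -0.06. Zfp131 had 2906 in EB and 2606 in ES (0.16). Zfp644, a partner of the methyltransferases G9a and GLP, had 2298 in EB and 1838 in ES (0.32). Zfp451, a SUMO ligase, had 788 in EB and 825 in ES (-0.06). Of 8 genes acting on RNA, ribosomes or the spindle 6 were above it, 3 positive and 3 negative, with a median of -0.03. Zfp207, a spindle assembly factor, had 2154 in EB and 2074 in ES. Of the CCCH-type proteins that speed the decay of AU-rich mRNA, Zfp36l1 had 4066 in EB and 2915 in ES (0.48), and its second probe gave 0.37. Zfp36l2 was under the floor in both arrays. Over all named genes above the floor the median was 0.06.

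Of the silencing machinery that KRAB proteins recruit, 5 of 8 named genes were above the floor, with a median of 0.39. Atf7ip, which stabilises SETDB1, had 1079 in EB and 2370.2 in ES and was the one past the 2-fold rule, with a log2 difference of -1.14. Of the heterochromatin protein genes Cbx1 was at least 1.41-fold higher, with its ES signal under the floor, and Cbx3 gave 0.46, Ehmt1 (GLP) 0.39 and Uhrf1, which guides maintenance DNA methylation, 0.29. Trim28 and Setdb1 had no named probe, so neither is analysed here. Of the NuRD genes 5 of 6 were above the floor, with a median of 0.14. None of the 5 passed the 1.5-fold rule, which 24.4% of all named genes above the floor passed. The lists were chosen with earlier results of these data known, and 9.08% of all named genes above the floor passed the 2-fold rule.

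Across the family small positive differences were more frequent than negative ones. Of the 82 members above the floor 57 (69.5%) had a positive difference, against 55.3% of all named genes above it. The 9 members above the floor in EB alone and the 4 above it in ES alone had their sign set by that filter. Of the 69 above it in both arrays 48 (69.6%) had a positive difference, against 55.7% of all named genes above it in both. The median log2 difference was 0.25, with quartiles of -0.12 and 0.39, against a median of 0.06 with quartiles of -0.26 and 0.35 over all named genes. The median bead-level standard error of a member was 0.10, with a range of 0.06 to 0.17. Of the 82 members 45 had a positive difference over 2 such errors and 14 a negative one. Of the 3867 named genes above the floor 1460 had a positive one and 1182 a negative one. Together these were 72.0% of the members, against 68.3% of all named genes above the floor. Members above the floor in 1 array alone, whose sign the filter set, are among these counts. The 87 members under the floor in both arrays had a median of 0.02. With 1 array per sample, the shift of the family's median cannot be told apart from a difference between the arrays.

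**Figure D3:**
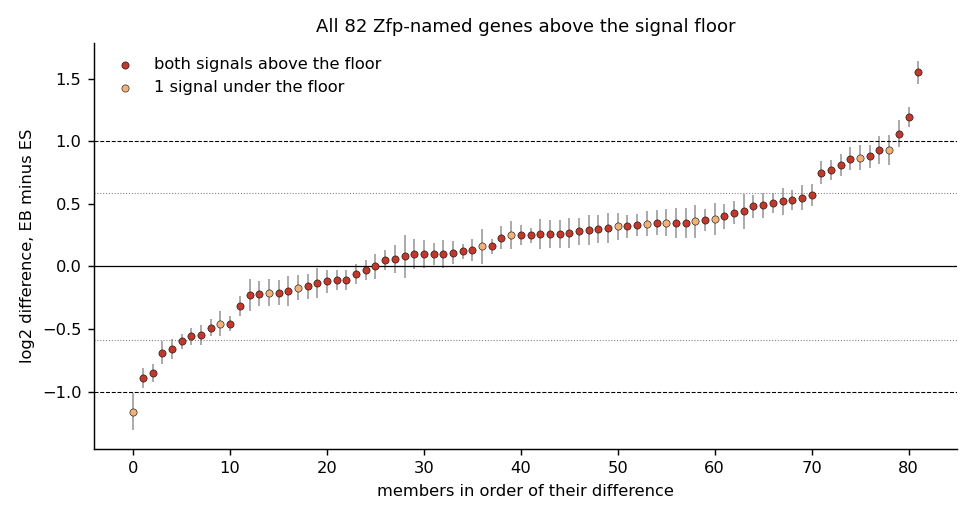
Log2 difference, EB minus ES, of the 82 Zfp-named genes above the floor, in order of size. Bars are bead-level standard errors, orange points have 1 of the signals under the floor, dashed lines mark 2-fold and dotted lines 1.5-fold differences. Of the points 57 lie above 0, and 4 lie beyond the dashed lines.

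The shift moved with signal strength. Of the 45 members whose geometric mean signal was under 2 times the floor 34 (75.6%) had a positive difference, with a median of 0.31. Of the 32 of these above the floor in both arrays 25 did, with a median of 0.30. Of the 24 between 2 and 4 times the floor 18 did, with a median of 0.19. Of the 13 at 4 times the floor or more 5 (38.5%) did, with a median of -0.32. Over all named genes the medians in these bands were 0.08, 0.07 and 0.05. The members of the brightest band included Zfp638, Zfp330, Zfp292, Zfp219 and Zfp281 on the lower side and Zfp36l1 and Zfp664 on the higher side. The part of signal strength in the shift was not tested.

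Other genes with C2H2 names (Zbtb, Zscan, Zkscan, Zik, Zic, Zfx and Zfy) were the nearest comparison. They were taken by symbol alone, which can take in a gene without these fingers, as with Zbtb8os, under the floor in both arrays. Of 37 such genes 16 (43.2%) were above the floor, 7 with a positive and 9 with a negative difference, and a median of -0.05 with quartiles of -0.22 and 0.14. In 2 of the 9 the filter set the sign, since they were above the floor in ES alone. Of the 14 above it in both arrays 7 had a positive and 7 a negative difference, with a median of 0.02. None of the 16 passed the 2-fold rule, which 9.08% of all named genes above the floor passed. Past the 1.5-fold rule 2 (12.5%) were lower and none higher, against 24.4% of all named genes in either direction. The difference between these and the Zfp-named genes was not tested, since no replicate exists.

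**Figure D4:**
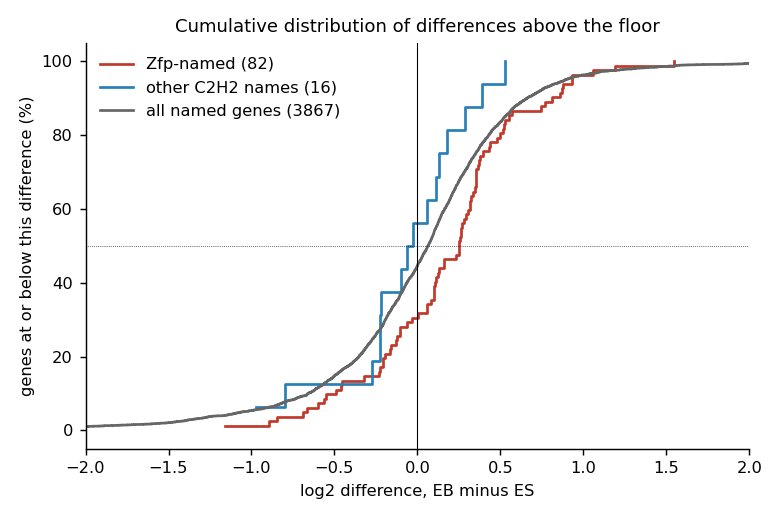
Share of genes (vertical axis, percent) at or below a given log2 difference, EB minus ES (horizontal axis, shown from -2 to 2), for 82 Zfp-named genes (red), 16 genes with other C2H2 names (blue) and 3867 named genes (grey), all above the floor. The curves reach 50% at 0.25, -0.05 and 0.06.

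Members that are neighbours in the RefSeq gene order were compared within chromosomes. Runs were formed of members at most 10 places apart among protein-coding genes and members, with at least 4 members, which gave 8 runs with 61 members. This rule was set after differences had been seen, and the neighbours named in the runs were chosen with it. The run on chromosome 6, from Zfp398 to Zfp775, had 7 of its 10 members above the floor, of which 4 passed the 1.5-fold rule and 1 the 2-fold rule, where 24.4% and 9.08% of all named genes above the floor did. Of these 7, Zfp398 and Zfp467 were above it in EB alone, so that the filter set their sign. The 5 above it in both arrays had positive differences from 0.26 to 1.19. In gene order, Zfp398 had signals of 249.5 in EB and 223 in ES, at least 1.08-fold higher. Zfp282 followed with its difference of 1.19, and Zfp212 with 465 in EB and 389 in ES (0.26). Zfp783 and Zfp956 were under the floor in both arrays. Zfp777, a KRAB protein, had 1016 in EB and 606 in ES (0.75). Zfp746, a KRAB repressor degraded through parkin and known to act on the gene of the mitochondrial regulator PGC-1α, had 671 in EB and 466 in ES (0.53). Zfp467 had 377 in EB and 206 in ES, at least 1.64-fold higher, and its second probe had 286 in EB and 193 in ES, with the ES signal again under the floor. The transcribed pseudogene Zfp862-ps had 488 in EB and 269 in ES (0.86). Zfp775, the last member, was under the floor in both arrays.

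Genes with other names lay within the same stretch. Repin1, also a zinc finger gene, had 328 in EB and 206 in ES and was at least 1.43-fold higher, Krba1 had 751 in EB and 652 in ES (log2 difference of 0.20), and Gm5111 was under the floor in both arrays. For the 10 run members the bead-level error ran from 0.08 to 0.14. The other probes of Zfp212 were under the floor in both arrays, so its difference rests on 1 probe.

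**Figure D5:**
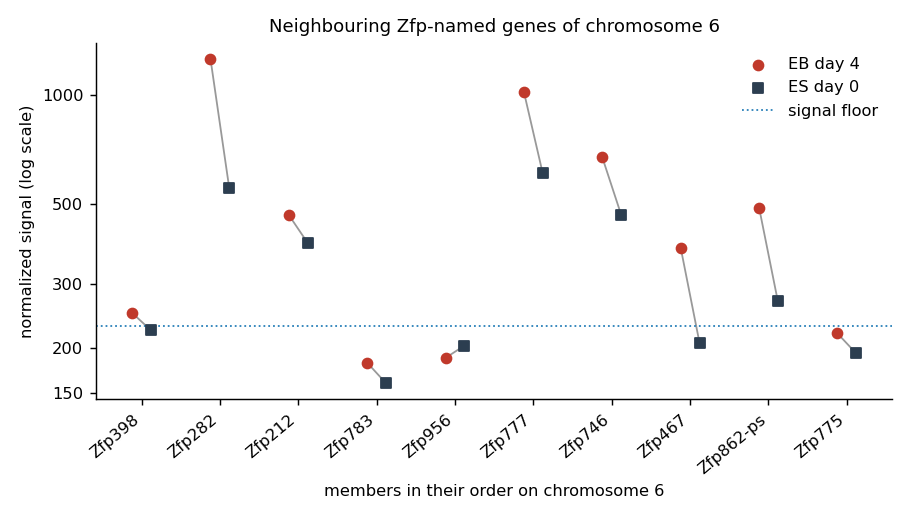
Normalized signal (vertical axis, log scale) in EB (red circles) and ES (dark squares) of 10 neighbouring members, placed in their gene order on chromosome 6 (horizontal axis). The dotted line is the signal floor of 230.0. Of the 7 members with a signal above it, Zfp398 and Zfp467 have their ES signal under it, and in the 5 with both signals above it the EB signal is the higher one, most widely apart in Zfp282.

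The other 7 runs held 17 members above the floor, none of them past the 1.5-fold rule, which 24.4% of all named genes above the floor passed. In the run from Zfp54 to Zfp40 on chromosome 17 all 11 members were under the floor in both arrays. In a second run on that chromosome, from Zfp871 to Zfp414, 5 of 9 members were above it, among them Zfp870, given above, and Zfp101 (0.51). On chromosome 13 the run from Zfp458 to Zfp273 had 2 of 8 members above it, Zfp58 (0.33) and Zfp87 (0.49). On chromosome 7 the 4 runs had 3 of 4, 2 of 4, 3 of 6 and 2 of 9 members above it, with differences between -0.22 and 0.40. By whole chromosome, chromosome 17 had 24 members, of which 5 were above the floor in both arrays and 2 of these had a positive difference. Chromosome 13 had 16, of which 6 were above it in both, all 6 positive, and chromosome 7 had 40, of which 14 were above it in both and 9 positive. Over all named genes above it in both arrays 55.7% were positive. Another 2 members of chromosome 17 and 5 of chromosome 7 were above the floor in 1 array, which set their sign. Clustered members can be near-identical copies, and the probe sequences, which would show what a probe can tell apart, are not used here.

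Second probes gave a check within the arrays. Of 44 members with more than 1 probe 11 had the first and second probe above the floor. In 3 of these pairs, those of Zfp467, Zfp704 and Zfp654, a signal lay under the floor in 1 array, so that the filter set a sign. Of the 8 pairs with all 4 signals above the floor 7 had the same sign. The exception was Zfp64, whose first probe had 870.0 in EB and 798.5 in ES (log2 difference of 0.12) and whose second had 388 in EB and 691 in ES (-0.83), so no direction is given for this gene. The standard deviation of the gap between the probes was 0.49 over these 8 pairs, with a median absolute gap of 0.13. Over all 11 pairs it was 0.46, larger than the bead-level error of single probes, against 0.39 over 447 named genes chosen in the same way. Zfp236 (0.13 and 0.37), Zfp317 (-0.03 and -0.08), Zfp566 (-0.22 and -0.21) and Zfp955a (-0.16 and -0.09) completed the pairs besides those already given and were named after their values were seen. The gap holds the error of both probes, so its standard deviation is not the error of 1 probe. Differences of members with 1 probe, large or small, carry more uncertainty than their bead-level errors show.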

How the data were processed

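Total RNA of 1 EB and 1 ES sample was labelled with biotin and hybridised to bead arrays, per the labels' protocols. The deposited signal intensities are means over the beads of a probe, exported, per the file headers, by BeadStudio 2.3.41 without normalization or error model. The deposited spread in signal units fell with the number of beads (slopes of -0.47 in EB and -0.44 in ES on log scales, for signals of at least 1000) and was read as a standard error. The deposited detection score, a fraction from 0 to 1, is in the EB file. The files also give the number of beads per probe, per the file headers. The series value table also holds intensity, and the sources used here do not say how it was derived. The submitters' processing notes name BeadStudio 2, RMA and limma with no role.

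Both arrays' intensities were brought to 1 distribution by quantile normalization and compared on the log2 scale (Python 3.11.15), with normexp from limma 3.58.1 in R 4.3.3 as an alternative. Both arrays carry 46643 probes, 28.4% of them above the floor in EB and 28.4% in ES. The common distribution and floor make these shares nearly equal by construction, so they do not compare detection between the arrays. Of 11857 probes with a padded Gene number (10000 or more) 9796 were named through RefSeq, assembly GRCm38.p6. The code was tested on simulated data. With 1 sample per group a size rule stood in for a test. Members, lists, rules and motifs were chosen with earlier results of these data known. Genes are named if past the 2-fold rule, among the 12 largest differences in each direction ordered with signals set to the floor, or in a list; genes named only as neighbours, in the bright band, for a pair of probes or under other observations were chosen after their values were seen. Protein features are not analysed here.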

Additional observations from a re-analysis of the deposited data

How the results depend on the processing

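No paired analysis was possible because there was 1 EB and 1 ES array, which also means that none could be left out. The 4 members past the 2-fold rule became 9 (8 higher, 1 lower; 11.0% of members, against 12.3% of all named genes) with normexp background correction, 26 (22 higher, 4 lower; 31.7%, against 25.7%) with the series value table and 17 (11 higher, 6 lower; 20.7%, against 24.4%) with a 1.5-fold rule, the last by its construction. For the others the cause was not tested, and with the series value table the members' share exceeded that of all named genes. The count was 3 or 4 under the other settings tried: no normalization between arrays, 3 other detection rules, signals set to the floor, the mean over probes, a limit of 2 bead-level errors and, both chosen after the data were seen, a brighter signal of at least 2 times the floor and the family without the chromosome 6 neighbours. The family without the chromosome 6 neighbours aside, the members' share was below that of all named genes in each of these settings. It ran from 2.37% with no detection filter (4.33% of all named genes) to 6.82% with the limit on the brighter signal (11.4%). Zfp97 no longer passed with both signals required above the floor, with signals set to it or with a brighter signal of at least 2 times the floor. The family's median of 0.25 stayed positive in the settings tried, from 0.07 with no detection filter to 0.38 with the series value table, where all named genes had 0.02 and 0.09. The 24 members with the largest differences kept their sign in all 208 values under other settings, and 23 values moved by more than the bead-level error. Settings that changed only which genes were counted repeat the same difference by construction. The members were also picked for large differences in these same arrays, so the kept signs are no independent support. Of the 82 members 66 had both signals under 4 times the floor, against 2039 of the 3867 named genes above the floor. Unsubtracted background can shrink differences near the floor, and its part in these counts was not tested.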

Other observations

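Among the genes with other C2H2 names, Zscan5b had a signal under the floor in EB and 297 in ES. Zbtb22 had 2384 in EB and 1653 in ES (log2 difference 0.53, bead-level standard error 0.07) and Zbtb10 337 in EB and 257 in ES (0.39). Zfx, an X-linked factor of ES cell self-renewal, had 1049.8 in EB and 971 in ES (0.11). These genes were named after their values were seen.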
